A study of Nannochloropsis oceanica with 6 samples.

Results

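NoPAC4 knockout line 1 of Nannochloropsis oceanica IMET1 was compared with wild type (WT) across all measured genes, using 2 libraries of line 1 and 2 of WT out of 6 libraries in the series. The members were chosen from the sample titles alone. The remaining 2 libraries, from a second NoPAC4 knockout line (line 2), entered the filter, the scaling and the estimate of the spread between libraries. Their values were also set side by side, and differences between the lines were tested for the genes reported. All cultures were of strain IMET1 and grew for 5 days in low light, kept on without dark periods at 50 µmol photons m-2 s-1. The treatment text gives 23 °C and the growth text 25 °C. Line 1 carries a knockout of NoPAC4, whose name the labels do not expand, and WT carries none. How the lines were made, whether each is a single clone and whether replicates were separate cultures is not given in the sources used here, so p-values measure the spread between these libraries, which may be technical.

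Nannochloropsis is a genus of small marine algae known for storing oil, and its cells hold a single plastid descended from a red alga. Nearly all of its genes lie in the nucleus, while the plastid keeps genes for photosynthesis and for its own gene expression, and the mitochondrion keeps genes of respiration. The RNA was polyadenylated, a selection that favours nuclear messages because most organelle transcripts lack a long poly(A) tail. The files do not pair nuclear gene IDs with names, so nuclear genes are described by ID, level and change, and NoPAC4 itself was not analysed here. Named roles are therefore those of organelle genes.

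Libraries held estimated counts of 13.96 M to 16.31 M, and 9712 of 10493 genes passed the filter on low counts. Replicate numbers follow the sample titles. The deposited headers number some WT and line 2 libraries differently, and any part of replicate number in the distances below was not tested. Whether line 1 differs from WT depended on how far the WT libraries differ from each other. Among 8801 genes with a mean of at least 10 TPM, transcripts per 1e+06 transcripts, 44 genes were more than 2-fold apart between the line 1 libraries and 396 between the WT libraries. Line 1 lay closer to WT replicate 1, with 109 and 78 genes more than 2-fold apart for line 1 replicates 1 and 2, than to WT replicate 2, with 488 and 366. The SD of the log2 ratio was 0.33 and 0.30 against WT replicate 1 and 0.52 and 0.49 against WT replicate 2, beside 0.23 within line 1 and 0.47 within WT. Measured as the share of the TPM pool that would have to be reassigned, line 1 differed by 7.57% and 7.17% from WT replicate 1 and by 14.1% and 12.7% from WT replicate 2. The same share was 4.15% between the line 1 libraries and 12.03% between the WT libraries, so the distance of line 1 from the nearer WT library was smaller than the distance within WT.

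**Figure D1:**
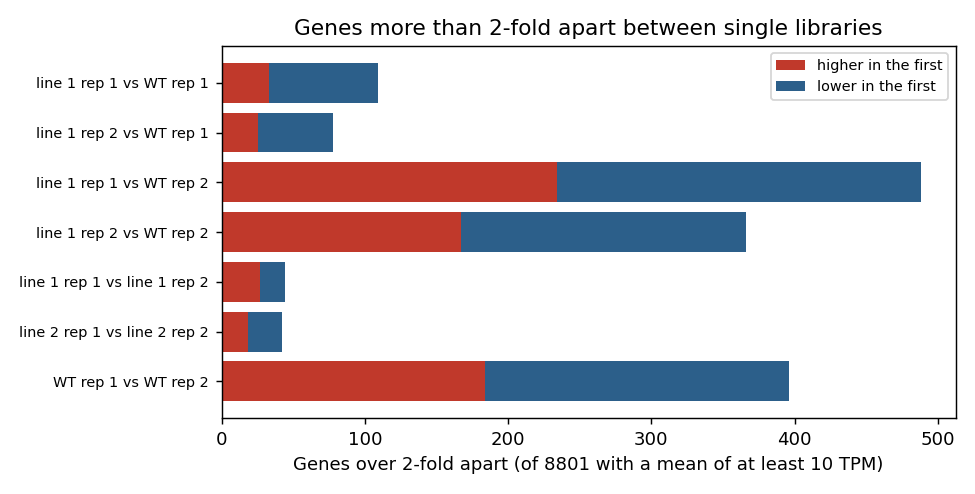
Number of genes more than 2-fold apart (x axis) for single pairs of libraries (y axis), of 8801 genes with a mean of at least 10 TPM, split by the direction in the library named first. The bars against WT replicate 2 (488 and 366 genes) and within WT (396) are several times longer than those against WT replicate 1 (109 and 78) and within line 1 (44).

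Most transcripts of line 1 lay near their WT level. The fitted log2 change, line 1 minus WT, was below 0.5 in size (1.41-fold) for 8378 genes (86.3%) and between 0.5 and 1 for 1136 (11.7%). It exceeded 1 (2-fold) for 198 genes, or 2.04%, of which 62 were higher and 136 lower, and it exceeded 2 for 43 (0.443%). The falls had the longer tail in the bulk of the genes, with the 5th percentile at -0.67 and the 95th at 0.48. The median was 0.00 because the scaling factors centre it, and a common shift of every transcript would not appear in these values.

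The size of a change went with the level of the transcript. Below 1 TPM, 74 genes had a median size of 0.76 log2 units and 40.5% were over 2-fold. From 1 to 10 TPM, the median of 837 genes was 0.36 and 10.3% were over 2-fold. From 10 to 100 TPM, the median of 6536 genes was 0.18 and 1.01% passed 2-fold, and from 100 to 1000 TPM the median of 2154 genes was 0.19 and 0.696% did. Above 1000 TPM, 1 of 111 genes was over 2-fold. The gap between the WT libraries shrank in the same order, with a median of 0.51 log2 units in the lowest class and 0.22 in the highest, so large changes among weakly transcribed genes were also those with the largest replicate error.

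**Figure D2:**
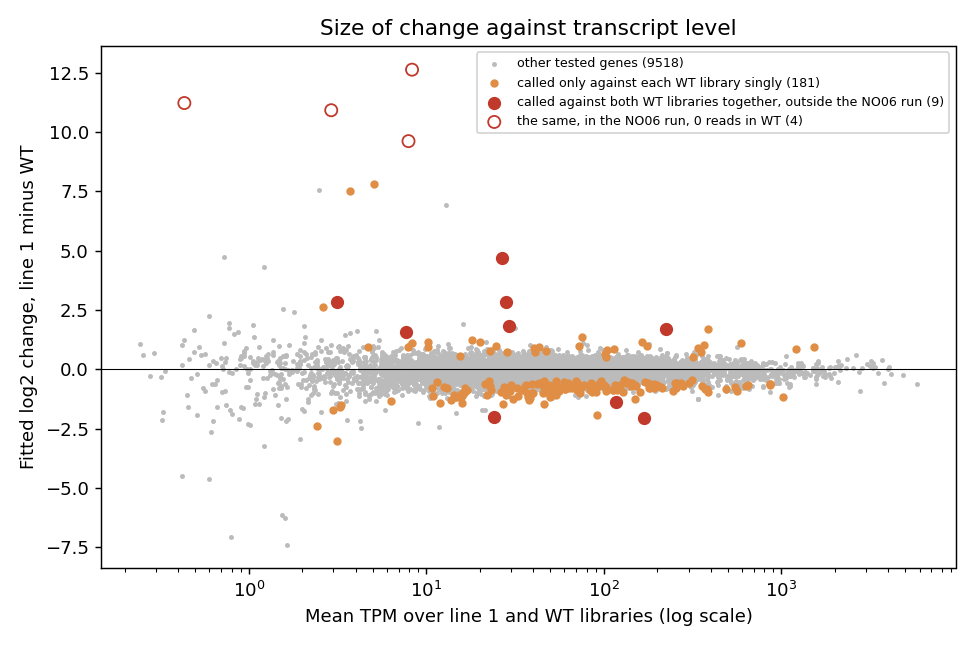
Fitted log2 change of line 1 minus WT (y axis) against the mean TPM over line 1 and WT libraries (x axis, log scale), 1 point per tested gene. The 9 genes called outside the NO06 run (filled red) lie between 1.58 and 4.70 or between -2.04 and -1.39. Open red circles are the 4 genes of the NO06 run called against both WT libraries together. Orange points pass only when WT libraries are used singly. Changes of genes with 0 reads in WT depend on the constant edgeR adds.

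The comparison of line 1 with both WT libraries asked which single genes change in this knockout line in low light. By edgeR's quasi-likelihood test with Benjamini-Hochberg adjustment, 13 genes passed an adjusted p of 0.05, or 0.134% of those tested. Of these, 10 rose (0.103%) and 3 fell (0.0309%). Both line 1 libraries lay beyond both WT libraries for all 13, a pattern that 23.2% of all tested genes showed upward and 21.3% downward, so the lack of overlap alone says little with 2 libraries a group. DESeq2 called 403 genes (4.15%), 88 higher and 315 lower, and limma-voom called 19, and both lists held all 13. At an unadjusted edgeR p below 0.05 there were 509 higher and 811 lower genes, together 13.6%. The counts rested on single libraries: 3 and 2 genes passed without line 1 replicate 1 and 2, 5 without either line 2 library, 3153 without WT replicate 1 and 214 without WT replicate 2.

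The largest rises lay at the end of 1 ID prefix. In the run of 18 IDs that closes prefix NO06, 11 IDs had reads in line 1 and 0 reads in WT, 6 had 0 reads in both, and 1 had reads in every library. Over the whole run line 1 had 1517 and 1530 reads, line 2 had 422 and 491, and WT had 38 and 22, and all WT reads belonged to the last-named ID. Of the 8 IDs of the run that were tested, 4 were called higher in line 1. Their lower bounds were 68.9-fold to 557-fold over a floor of 3 reads in both WT libraries together (0.0946 CPM). CPM are counts per 1e+06 counts of the library, scaled by TMM factors, and these bounds cover counting error only. The run was set apart for its lack of WT reads, and IDs with 0 WT reads passed the filter through the line libraries alone. Their calls are therefore a description and no independent support.

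Outside the run 9 genes passed, 6 higher and 3 lower, and 4 of the 9 carried prefix NO18. The rises ran from 1.58 to 4.70 log2 units and the falls from -2.04 to -1.39. In each of the 9, the line 2 values lay between those of line 1 and WT. Line 2 is set against the same WT libraries and the genes were chosen by line 1 against WT, so this is a description and no independent support.

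NO18G02490 had the largest rise among the 9 genes. It had 35.0 and 32.5 CPM in line 1, 23.6 and 22.8 CPM in line 2, and 1.34 and 1.24 CPM in WT, from 513 and 494 reads in line 1 and 22 and 19 reads in WT. The line 1 libraries were the highest, the WT libraries the lowest, and no groups overlapped. The mean was 33.7 ± 1.73 CPM in line 1 and 1.29 ± 0.07 CPM in WT (SD, n = 2 each), which gives 4.70 ± 0.17 on the log2 scale (SE, edgeR adjusted p = 0.000516). Its counts were whole in every library, so no fractional share of reads was visible. It passed in all 16 alternative fits, with changes from 4.17 to 4.75, and stood at 4.62 against WT replicate 1 alone and 4.75 against WT replicate 2 alone (edgeR adjusted p = 2.03e-05 and 1.58e-05). Line 2 was at 4.16 ± 0.17 (SE) against the same WT libraries, and the difference between line 1 and line 2 was 0.54 ± 0.13 (SE, edgeR adjusted p = 0.914).

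NO18G00300 had the next largest rise among the 9, but its value depended on how reads were divided. It had 18.1 and 14.9 CPM in line 1, 12.6 and 10.6 CPM in line 2, and 1.77 and 2.87 CPM in WT. Line 1 was highest and WT lowest, and the means were 16.5 ± 2.30 CPM in line 1 and 2.32 ± 0.78 CPM in WT (SD, n = 2 each). On the log2 scale the change was 2.83 ± 0.27 (SE, edgeR adjusted p = 0.0236). The call was lost in 7 of 16 alternative fits, with an edgeR adjusted p of up to 0.265, among them each fit without a line 1 or line 2 library. Its estimated counts were not whole, and they became whole in all 6 libraries when those of the ID just before it were added, to 403 and 364 reads for line 1, 277 and 303 for line 2, and 138 and 131 for WT. Summed in this way, the pair had 25.7 ± 2.48 CPM in line 1 and 8.49 ± 0.10 CPM in WT (SD, n = 2 each), which gives 1.60 ± 0.15 on the log2 scale (SE, edgeR adjusted p = 0.0225). The sum therefore rose by less than the single ID, and how much of the rise belongs to NO18G00300 cannot be told apart from the other ID.

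The larger falls among the 9 genes came from a similar set of neighbours. NO18G00270 had 34.1 and 25.99 CPM in line 1, 64.9 and 84.7 CPM in line 2, and 109 and 138 CPM in WT. NO18G00260 had 35.6 and 30.6 CPM in line 1, 85.9 and 93.9 CPM in line 2, and 125 and 142 CPM in WT. In both, line 1 was lowest and WT highest, with line 2 between them and no overlap. The log2 change was -2.04 ± 0.22 for NO18G00270 and -2.01 ± 0.14 for NO18G00260 (SE, edgeR adjusted p = 0.0381 and 0.00656). The call was lost in 8 of 16 alternative fits for NO18G00270 and in 5 of 16 for NO18G00260, and for both it was lost whenever any single line 1 or line 2 library was left out.

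These genes also shared reads, since their counts added to whole numbers together with those of 1 more neighbour that had under 2 reads in each library. Line 1 had 1024 and 860 reads over the 3 IDs, line 2 had 2155 and 2551, and WT had 3830 and 4290. The sum was 63.2 ± 9.33 CPM in line 1 and 257 ± 33.0 CPM in WT (SD, n = 2 each), which gives -2.02 ± 0.17 on the log2 scale (SE, edgeR adjusted p = 0.0181), so here the division of reads made no difference to the size. The difference of the sum between line 1 and line 2 was -1.38 ± 0.17 (SE, edgeR unadjusted p = 0.000124, adjusted p = 0.402). The 2 named falls close a stretch of 27 IDs at the start of NO18, of which 9 were tested. The stretch was ended at these falls and so holds them by choice. Shortly after its end, NO18G00300 and the ID just before it stood at 2.83 and 0.58, so the choice of end favours a stretch without rises. Both line 1 libraries lay below both WT libraries for all 9, against 21.3% of all tested genes, with changes from -3.25 to -0.90 and a median of -1.94, against 0.00 for all tested genes. Against each WT library singly 3 of them passed, against 1.99% of all, and these 3 include the named falls. Whether neighbouring IDs are neighbours on a chromosome is not given in the sources used here.

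The other 5 genes called outside the run carried 5 different prefixes. A gene of prefix NO13 had 31.4 and 30.9 CPM in line 1, 22.0 and 16.2 CPM in line 2, and 3.97 and 4.83 CPM in WT, which gives 2.82 ± 0.21 on the log2 scale (SE, edgeR adjusted p = 0.00697). A gene of NO27 had 147 and 138 CPM in line 1, 89.6 and 85.7 CPM in line 2, and 36.7 and 43.4 CPM in WT, a change of 1.83 ± 0.13 (SE, edgeR adjusted p = 0.00661). In both, line 2 lay between line 1 and WT without overlap.

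The next rises, of prefixes NO08 and NO09, had line 2 nearer to WT than to line 1. The first had 314 and 318 CPM in line 1, 151 and 139 CPM in line 2, and 111 and 81.3 CPM in WT, a change of 1.71 ± 0.17 (SE, edgeR adjusted p = 0.0273) in line 1 and 0.59 ± 0.17 (SE) in line 2. The second had 27.9 and 29.2 CPM in line 1, 13.4 and 13.02 CPM in line 2, and 8.85 and 10.3 CPM in WT, a change of 1.58 ± 0.15 (SE, edgeR adjusted p = 0.0236) in line 1 and 0.47 ± 0.15 (SE) in line 2. The differences between line 1 and line 2 were 1.12 ± 0.17 and 1.11 ± 0.15 (SE, edgeR unadjusted p = 0.000396 and 0.000177, adjusted p = 0.560 and 0.404). The third fall, of prefix NO04, had 41.5 and 45.3 CPM in line 1, 57.8 and 55.1 CPM in line 2, and 125 and 103 CPM in WT, a change of -1.39 ± 0.14 (SE, edgeR adjusted p = 0.0249). The NO08, NO09, NO04 and NO13 genes had whole counts, and the NO27 gene did not.

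**Figure D3:**
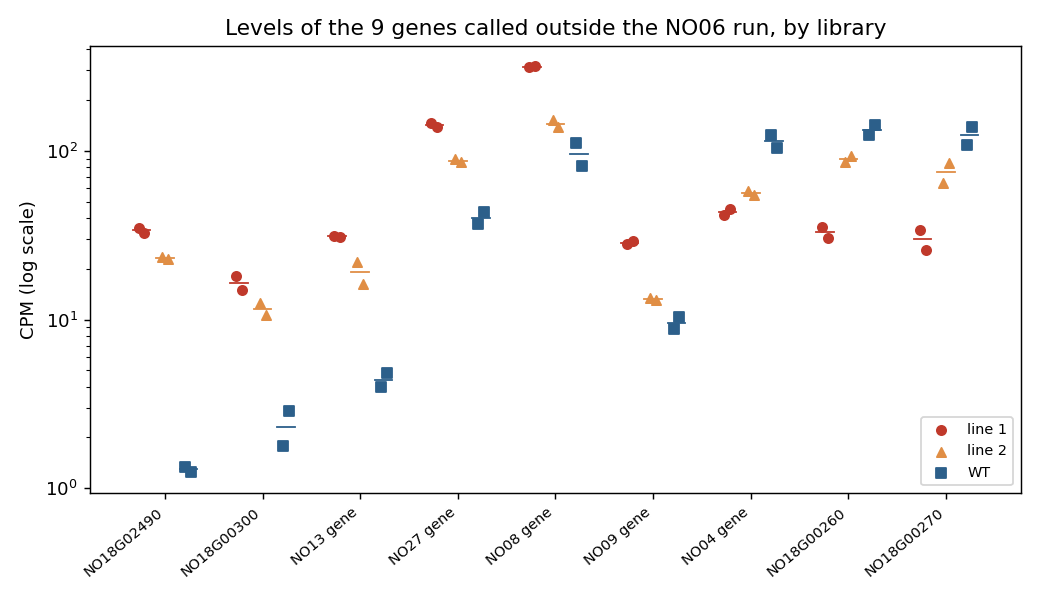
CPM (y axis, log scale) of the 9 genes called outside the NO06 run, with 2 libraries each of line 1 (circles), line 2 (triangles) and WT (squares) and a bar at each mean. Line 1 and WT form the extremes for every gene, from 33.7 against 1.29 CPM for NO18G02490 to 30.0 against 123 CPM for NO18G00270.

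For each of the 13 called genes, both line 1 libraries lay beyond both line 2 libraries on the side away from WT. The genes had been chosen by their line 1 values, which favours this pattern. By the test of the difference between line 1 and line 2, 0 of the 13 were called by edgeR or limma-voom, 12 had an unadjusted edgeR p below 0.05, and DESeq2 called 9. With only the 4 libraries of the lines in the fit, edgeR also called 9. Shares of all tested genes for this difference are not given here, so these counts have no background to be set against.

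The next comparison asked which changes line 1 shows whichever WT library is used. The edgeR fit was repeated with 1 WT library at a time, under the assumption that the lone library varies like those of the lines, which the gap between the WT libraries exceeds. Against WT replicate 1 alone, 214 genes passed (2.19%), 50 higher and 164 lower. Against WT replicate 2 alone, 3153 passed (32.2%), 1462 higher and 1691 lower. Of 2956 genes that passed against WT replicate 2 only, 1139 had a change of the opposite sign against WT replicate 1. Over all tested genes, 40.7% had opposite signs against the WT libraries.

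In all, 194 genes passed against each WT library in the same direction, or 1.99% of the 9768 genes tested in both fits, and 3 more passed in opposite directions. The 194 made up 90.7% of the list against WT replicate 1 and 6.15% of that against WT replicate 2. Of them, 44 were higher (0.45%) and 150 lower (1.54%), 5 lay in the NO06 run, and all 13 genes called above were included. Both fits share the line libraries, so they are not independent. Without line 1 replicate 1 the count was 103, of which 82 were among the 194, and without line 1 replicate 2 it was 218, with 144 shared. DESeq2 run in the same way gave 280 genes, with 179 shared.

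**Figure D4:**
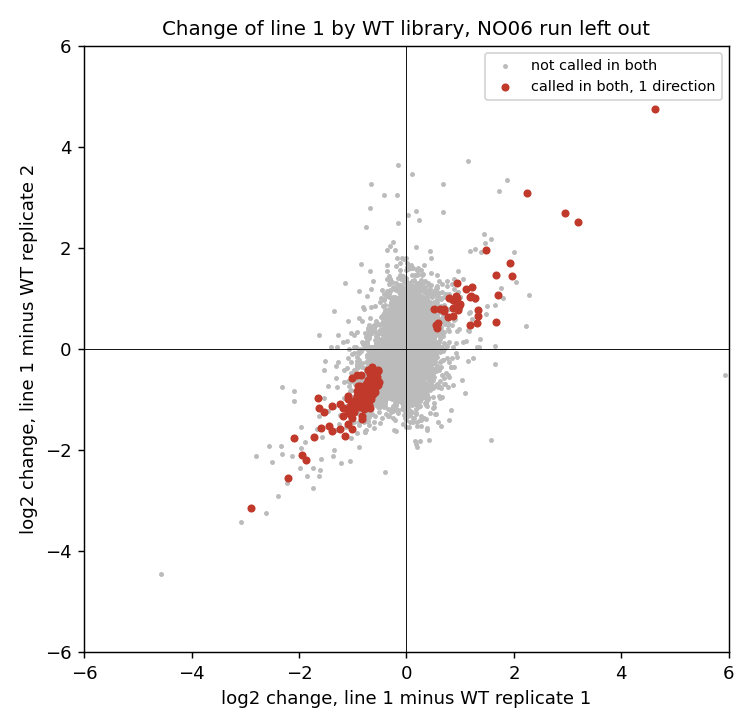
Log2 change of line 1 against WT replicate 1 (x axis) and WT replicate 2 (y axis) for 9685 genes outside the NO06 run, 1 point per gene, within 6 log2 units. The cloud is taller than wide, as changes against WT replicate 2 were larger. The 188 genes shown as called in both fits lie in the lower left and upper right quadrants, most of them well inside the axis limits. Both axes share the line 1 libraries, so the shape is no measure of agreement.

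The 39 higher genes outside the run had log2 changes from 0.50 to 7.51 with a median of 0.98. The 7.51 belongs to a gene of prefix NO04 with 0 reads in WT, so its size depends on the constant edgeR adds. That gene passed the filter through the line libraries alone, and the next largest change was 4.70. The 150 lower genes had changes from -3.01 to -0.47 with a median of -0.78. The median of all tested genes was 0.00. Higher genes had a median level of 41.2 TPM and lower genes of 63.3 TPM, against 48.8 TPM for all tested genes. Their counts were whole for 74.4% of the higher and 64.7% of the lower genes, against 73.5% of all. By the ratio of count to TPM, which is proportional to effective length, the median higher gene was 1.18 times and the median lower gene 1.32 times as long as the median tested gene. Against both WT libraries together, line 2 had a median change of 0.59 for the higher and -0.72 for the lower genes; the WT libraries are shared, and these medians are given side by side only. The difference between the lines was also tested over the whole list, the NO06 run included. It passed for 0 genes by edgeR and for 14 by DESeq2, and 46 had an unadjusted edgeR p under 0.05. Shares of all tested genes for this difference are not given here either.

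At least 2-fold against each WT library were 15 higher genes outside the run and 27 lower genes. The 15 came from 11 prefixes and had mean levels from 0.754 CPM, for the NO04 gene with 0 reads in WT, to 383 CPM. Beside those already given, they included an abundant transcript of prefix NO03 with 584 CPM in line 1 and 181 CPM in WT on average, which is 1.69 on the log2 scale and past the threshold only with WT libraries used singly (with both, edgeR adjusted p = 0.0634). The 27 came from 15 prefixes, with changes from -3.01 to -1.02 and mean levels from 3.39 to 2952 CPM. Among the 27, the largest fall was that of a weak transcript of prefix NO14, at 0.942 CPM in line 1 and 7.63 CPM in WT (edgeR adjusted p = 0.0726 with both WT libraries).

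These genes were spread over all 30 nuclear prefixes, and 0 organelle genes were among them. Their share of a prefix's tested genes was highest in NO27 (6.55%), NO18 (5.93%) and NO26 (5.14%), and lowest in NO05 (0.568%), against 1.99% of all genes. In NO18, 4 of the 14 were higher and 10 lower. In NO26, all 9 were lower. Neighbours in the ID order were listed together more often than single genes: of 376 places next to a listed gene outside the run, 30 (7.98%) held another listed gene. These formed 15 pairs, 13 of them in the same direction (11 lower, 2 higher), and both counts were whole in 3 of those 13. The part of shared reads in the other pairs was not tested.

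Changes at the abundant end of the transcriptome were small, as they were for most genes. None of the 100 most abundant transcripts was called by edgeR against both WT libraries, against 0.134% of all tested genes. None was over 2-fold changed, against 2.04% of all tested genes, and log2 changes ran from -0.90 to 0.96. With shares this low, 0 of 100 says little. The 100 transcripts held 18.5% and 18.7% of all TPM in line 1 and 18.2% and 19.1% in WT. Against each WT library singly 2 of them passed, both higher. One, of prefix NO02, had 2059 and 2020 TPM in line 1 and 790 and 1224 TPM in WT, and the other, of NO25, had 1668 and 1455 TPM in line 1 and 854 and 841 TPM in WT. Both line 1 libraries were above both WT libraries for 26 of the 100 and below for 17, near the 23.2% and 21.3% of all tested genes.

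Outside the top 100, a transcript of prefix NO17 had the largest loss among the 194, at 662 and 628 TPM in line 1 and 1379 and 1419 TPM in WT. Its log2 change was -1.15 (edgeR adjusted p = 0.0689 with both WT libraries), -1.09 against WT replicate 1 and -1.23 against WT replicate 2. Another 3 consecutive IDs of NO06, distant in the ID order from the run at its end, had nearly the same level as each other, 664 to 720 TPM across the line 1 libraries and 1015 to 1033 TPM across the WT libraries. Their log2 changes were -0.65, -0.63 and -0.64. As near-identical values in neighbours can come from reads divided among copies, they are best read as 1 observation. The counts of genes and of neighbour pairs given here still include each of the 3 IDs.

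Among plastid transcripts negative values prevailed in line 1, but none passed the test. Of 125 plastid genes 25 had enough reads. Negative log2 values were found for 18 and positive ones for 7, and their median was -0.38, against 0.00 for all tested genes. Both line 1 libraries lay below both WT libraries for 12 of the 25 (48%), against 21.3% of all tested genes, and above for 3. Line 2, set against the same WT libraries, also had mostly negative values for these 25 genes, so the pattern was not particular to line 1. By edgeR, DESeq2 and limma-voom 0 were called, against 0.134% of all tested genes by edgeR and 4.15% by DESeq2. With shares this low, 0 of 25 says little. Of the 25, 3 had an unadjusted edgeR p below 0.05, a share near the 13.6% of all tested genes. Plastid reads numbered 1380 and 2430 in line 1 and 1935 and 1845 in WT, and 1227 of the 2430 reads of line 1 replicate 2 belonged to psbA alone. In polyadenylated RNA these counts also reflect how much of each transcript carried a tail, and the part of this in the values was not tested.

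Photosystem II splits water with light, and 4 of its 19 genes in the table were tested. Its gene psbA, for the D1 protein that turns over fastest in light, had 330 and 1227 reads in line 1, against 421 and 387 in WT. The line 1 libraries lay on either side of WT, and the difference of 1.02 ± 0.53 log2 units did not pass (SE, edgeR adjusted p = 0.455). The antenna gene psbC, for CP43, had 37 and 46 reads in line 1, against 74 and 89 in WT, a change of -0.89 ± 0.30 (SE, edgeR adjusted p = 0.269), and psbB, for CP47, stood at -0.99 ± 0.55 (SE). Both were below both WT libraries, while psbD, for the D2 protein, overlapped with WT at -0.15. In photosystem I, whose core binds most of its chlorophyll, psaA stood at -0.39 and psaB at 0.18.

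None of the 8 cytochrome b6f and related pet genes in the table had enough reads. Among genes of plastid gene expression, rpoA, for a subunit of the plastid RNA polymerase, had 7 and 11 reads in line 1, against 23 and 23 in WT, a change of -1.26 ± 0.44 (SE, edgeR adjusted p = 0.283). Another polymerase subunit, rpoC2, overlapped at -0.29. The elongation factor gene tufA had 19.5 ± 1.51 CPM in line 1 and 17.6 ± 0.22 CPM in WT (SD, n = 2 each). Of 43 ribosomal protein genes 3 were tested, and rps2, rps10 and rpl21 stood at -0.69, -0.02 and 0.21, each with overlapping libraries.

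The chaperone gene dnaK, a plastid Hsp70, had 125 and 110 reads in line 1, against 286 and 161 in WT, a change of -0.83 ± 0.36 (SE, edgeR adjusted p = 0.383). It stood at -1.17 against WT replicate 1 and -0.42 against WT replicate 2. The membrane protease gene ftsH stood at 0.37 and the Clp family gene clpC-II at -0.65. The ATP synthase genes atpA and atpB were at -0.60 and -0.38, both below both WT libraries, and rbcL, for the large subunit of the carbon-fixing enzyme Rubisco, was at -0.14. The gene chlL, which encodes part of the protochlorophyllide reductase that works in darkness, had the plastid value farthest from 0, -2.20 ± 0.75 (SE, edgeR adjusted p = 0.272), from 1 and 5 reads in line 1, against 12 and 18 in WT.

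Most tested mitochondrial genes had positive values against both WT libraries together, yet none passed. Positive log2 values were found for 8 of 10 genes, their median was 0.44, and both line 1 libraries were below both WT libraries for 2 (20%) and above for 3, near the 21.3% and 23.2% of all tested genes. Several signs depended on the WT library. Against WT replicate 1, nad4, nad11 and cox2 stood at -0.67, -0.41 and -0.08. Against WT replicate 2, where they had 1, 1 and 3 reads, they stood at 2.79, 3.05 and 1.79. The gene cob went the other way, at 0.69 and -0.22. In line 2, against the same WT libraries, nad5, rpl2 and cox2 were negative, unlike in line 1. Again edgeR, DESeq2 and limma-voom called 0, against 0.134% of all tested genes by edgeR and 4.15% by DESeq2. Of the 10, 2 had an unadjusted edgeR p below 0.05, against 13.6% of all tested genes. These were nad7, for a subunit of respiratory complex I, with 7 and 13 reads in line 1, against 26 and 29 in WT (-1.37 ± 0.46, SE, edgeR adjusted p = 0.264), and atp1, for the alpha subunit of ATP synthase, with 22 and 17 reads in line 1, against 45 and 31 in WT (-0.87 ± 0.35, SE, edgeR adjusted p = 0.353). The cytochrome oxidase gene cox1 had 40 and 61 reads in line 1, against 39 and 38 in WT, a change of 0.47 ± 0.29 (SE, edgeR adjusted p = 0.515). Mitochondrial reads numbered 179 and 221 in line 1 and 227 and 184 in WT, and what size of change this depth can show was not tested.

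**Figure D5:**
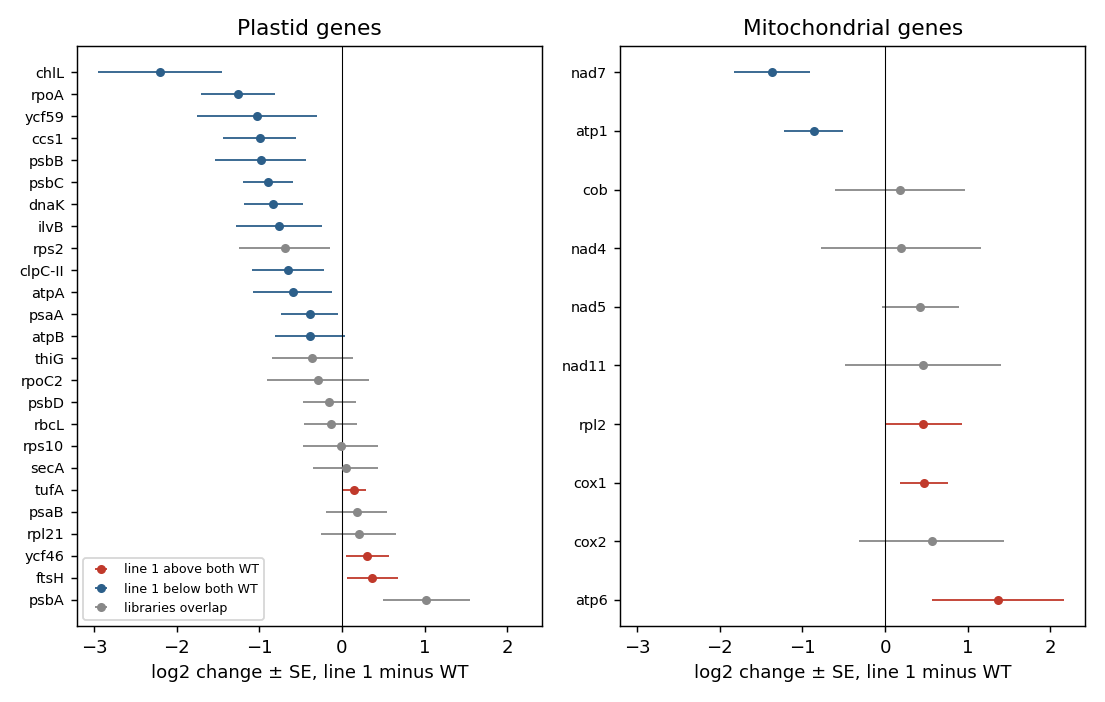
Log2 change of line 1 minus WT with its standard error (x axis) for the 25 tested plastid genes and the 10 tested mitochondrial genes (y axis), coloured by whether both line 1 libraries lie above or below both WT libraries. Of the plastid genes 12 are below WT and 3 above, from chlL at -2.20 to psbA at 1.02, where the line 1 libraries lie on either side of WT.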

How the data were processed

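Polyadenylated RNA (2 µg of input RNA, a kit that does not mark strand) was sequenced from 6 libraries. The authors deposited expected counts per gene, 20.1% of them not whole (tolerance 1e-06), and TPM for the same genes, summing to 1e+06 per library. STAR and edgeR were used per the submitters' processing notes, with no versions; the counting program, genome build and annotation are not given in the sources used here. Of 160 organelle IDs, 157 matched a RefSeq symbol table (assembly ASM5162214v2) and 3 are second copies of matched genes, while 0 of 10333 nuclear IDs matched.

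Expected counts were rounded. The main test was edgeR 4.0.16 (robust quasi-likelihood, TMM factors, default group filter) in R 4.3.3 on all 3 groups, with 3 residual degrees of freedom. DESeq2 1.42.0 and limma 3.58.1 (voom, and log2(TPM + 1) or log2(TPM + 0.1)) were alternatives. Library ratios used log2 CPM with a prior count of 2. Code was tested on simulated data. The named nuclear genes are the 2 largest rises and 2 largest falls called outside the NO06 run, without overlap and with a mean of at least 5 CPM; organelle genes with enough reads are named by role. Members and lists were chosen with earlier results of these data known, and genes identified by prefix alone were picked after their values were seen.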

Additional observations from a re-analysis of the deposited data

How the results depend on the processing

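The 13 genes called in line 1 (9 outside the NO06 run) depended on the test and on single libraries. DESeq2 gave 403 (396 outside the run), line 1 and WT alone in the fit 5 (2), a filter of 10 counts in every library 8, adjusted p limits of 0.01 and 0.1 gave 7 (4) and 84 (79), and log2(TPM + 1) and log2(TPM + 0.1) with limma each gave 5 outside the run. Leaving out 1 library gave 2 to 3153 (1 to 3146). With a replicate block 20 (16) were called, including all 13. The block used the replicate numbers of the sample titles. Deviations of libraries with the same title number correlated at 0.08 between line 1 and WT, 0.40 between line 2 and WT and 0.18 between the lines. Title numbers were not taken to pair the samples in the main test. The deposited headers number some libraries differently, and a pairing by those numbers was not tested. Other scaling factors, limma-voom, no filter and summed neighbours gave 12 to 19 calls.

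The 194 genes called against each WT library singly became 26 at an adjusted p of 0.01, 47 with a 2-fold limit, and 103 to 218 without 1 line 1 library. Of the called genes, 9 differed between the lines by DESeq2 and 9 with the lines alone in the fit, against 0 in the main test. No named gene reversed in 16 alternatives each: NO18G02490 kept its call in 16, NO18G00260 in 11, NO18G00300 in 9 and NO18G00270 in 8. Those of NO18G00260, NO18G00300 and NO18G00270 were lost without any 1 of the 4 line libraries (edgeR adjusted p from 0.0610 to 0.552). The neighbour sums and the alternatives for the difference between the lines were chosen after seeing the data. The causes were not tested. Genes below 10 TPM have the least depth behind them.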

Other observations

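A few genes outside the NO06 run had reads in only 1 of the groups, counting those with at least 3 reads in each library of the group that had them. There were 3 with reads in line 1 and 0 in WT. The strongest, of prefix NO04, had estimated reads of 23.6 and 21.1 for line 1, 11.1 and 9.34 for line 2 and 0 for WT, at least 15.8-fold above a floor of 3 reads in both WT libraries together (edgeR adjusted p = 0.0871 with both WT libraries). It was picked for its 0 reads in WT and passed the filter through the line libraries alone. Its pass against each WT library singly is therefore no independent support, and its fitted log2 change of 7.51 depends on the constant edgeR adds. The other 2 had 4 to 8 reads in line 1. In the other direction, 5 genes had 0 reads in line 1 and reads in WT, and 2 of these had 0 reads in line 2 as well. The strongest, of prefix NO22, had estimated reads of 0 and 0 for line 1, 0 and 3.68 for line 2, and 15.0 and 19.7 for WT, at least 10.98-fold lower in line 1 than in WT (edgeR adjusted p = 0.155). One was the plastid ribosomal protein gene rpl4, with 0 and 0 reads in line 1 and 8 and 3 in WT. These counts are near the limit of detection.

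In absolute amount, the largest shift of the TPM pool was a fall of 1 transcript of prefix NO02, at 4608 and 4767 TPM in line 1, 3701 and 4834 TPM in line 2, and 6784 and 6963 TPM in WT, which is -0.61 on the log2 scale and not past the threshold (edgeR adjusted p = 0.182). A second transcript with the same prefix had 1891 and 2091 TPM in line 1, 1323 and 2194 TPM in line 2, and 3405 and 3742 TPM in WT (-0.90, edgeR adjusted p = 0.201). In both, all line libraries were below both WT libraries.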
